A study of Mus musculus with 17 samples.

Results

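Genes for neutrophil granule and cytosolic proteins were followed through cultures of mouse bone marrow macrophages and early osteoclasts. The members are Elane, Mpo and Prtn3, of the primary granule; Ltf, Camp, Lcn2, Ngp and Mmp8, of the secondary granule; and S100a8 and S100a9, which form cytosolic calprotectin. They were chosen by name because their levels in these same libraries were already known to differ, so the values of the members are descriptions and carry no test. All 10 were found among the 41033 genes counted, and all 10 passed the filter on low counts in every comparison. None of them belongs to the tertiary granule alone, and genes of that granule were taken from a separate list.

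The 17 libraries came from mouse marrow grown with M-CSF into bone marrow macrophages (BMM) or further treated with RANKL at 100 ng/ml for 24 h to give early osteoclasts, labelled OC and called preOC by the study. The preOC came from 20-week-old male mice, and the age and sex behind the BMM libraries are not given in the sources used here. Every mouse carried loxP sites on both copies of Bap1, the gene of a nuclear deubiquitinase. In Bap1LysM mice Cre recombinase was expressed from the lysozyme M gene Lyz2, which is active in macrophages, monocytes and neutrophils alike, and Bap1flox littermates had no Cre. There were 3 Bap1flox and 3 Bap1LysM BMM libraries, 6 Bap1flox preOC libraries and 5 Bap1LysM preOC libraries (numbers 1, 2, 4, 5 and 6). Numbers 1 to 3 and numbers 4 to 6 were deposited under 2 styles of file name, and they are called library set A and library set B here. Set B holds preOC libraries only.

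Neutrophils store antimicrobial proteins in granules that are filled in sequence as the cell matures. Primary (azurophil) granules with myeloperoxidase and serine proteases are made at the promyelocyte stage, secondary (specific) granules with lactoferrin, cathelicidin and lipocalin at the myelocyte and metamyelocyte stages, and tertiary (gelatinase) granules later still. Macrophages and osteoclasts are not known for making most of these proteins, although marrow cultures start from cells that include neutrophil precursors. C/EBP factors, above all C/EBP epsilon for the secondary granule, and PU.1 drive these genes in the granulocyte lineage.

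Because 9 of the 10 members varied together across the libraries and Mmp8 went the other way, the promoters of members on both sides are shown first. The 250 bases before the RefSeq start of Ngp and Ltf (secondary granule, high together), Elane (primary granule) and Mmp8 are given below on the gene's own strand, from the GRCm38.p6 assembly. Capitals mark matches on either strand to the short C/EBP motif TTGCNNAA, which includes the palindrome TTGCGCAA, or to the PU.1 core GAGGAA.
Ngp, chr9:110419558-110419807, plus strand: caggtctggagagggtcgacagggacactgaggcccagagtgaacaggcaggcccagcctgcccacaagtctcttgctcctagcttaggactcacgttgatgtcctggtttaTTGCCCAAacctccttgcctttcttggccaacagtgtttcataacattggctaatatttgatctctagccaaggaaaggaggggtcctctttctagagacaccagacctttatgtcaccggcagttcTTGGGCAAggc
Ltf, chr9:111019042-111019291, plus strand: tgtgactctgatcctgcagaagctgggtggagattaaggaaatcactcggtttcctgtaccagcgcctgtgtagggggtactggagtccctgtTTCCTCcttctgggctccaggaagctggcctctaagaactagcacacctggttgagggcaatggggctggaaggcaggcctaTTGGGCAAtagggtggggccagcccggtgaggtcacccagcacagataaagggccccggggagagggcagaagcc
Elane, chr10:79886062-79886311, plus strand: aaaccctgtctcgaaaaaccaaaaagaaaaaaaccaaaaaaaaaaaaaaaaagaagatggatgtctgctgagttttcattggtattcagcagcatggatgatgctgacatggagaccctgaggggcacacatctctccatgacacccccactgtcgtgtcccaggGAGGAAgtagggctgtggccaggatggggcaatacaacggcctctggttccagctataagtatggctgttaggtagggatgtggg
Mmp8, chr9:7558179-7558428, plus strand: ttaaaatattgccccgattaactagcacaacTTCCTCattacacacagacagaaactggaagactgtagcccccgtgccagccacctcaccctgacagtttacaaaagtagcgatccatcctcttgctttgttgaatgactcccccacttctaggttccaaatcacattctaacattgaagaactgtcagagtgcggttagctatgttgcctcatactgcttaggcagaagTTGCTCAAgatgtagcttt

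The short C/EBP motif was found in the promoters of 5 of the 10 members (Ngp, Ltf, Lcn2, Mmp8 and S100a9), and 9.56% of all 32851 RefSeq promoters of this length hold it. The PU.1 core was found in 7 of the 10 (Elane, Mpo, Prtn3, Ltf, Lcn2, Mmp8 and S100a8), against 23.3% of all promoters. The palindrome was in 0 of the 10 and in 0.164% of all. Ngp held the short C/EBP motif 131 to 138 and 4 to 11 bases before its start, and Mmp8 held it 12 to 19 bases before. Mmp8 thus carried both kinds of match, as did Ltf and Lcn2, which moved against it. Several members are neighbours in the genome. Prtn3 (chr10:79874476-79883174) ends 3.14 kb before Elane (chr10:79886312-79888216), and S100a8 (chr3:90669071-90670034) and S100a9 (chr3:90692632-90695721) lie 22.6 kb apart, each pair with 0 protein-coding genes between. Camp (chr9:109847375-109849456), Ngp (chr9:110419750-110423010) and Ltf (chr9:111019292-111042766) follow each other on the chromosome with gaps of 570 kb (8 protein-coding genes between) and 596 kb (20 genes). Mmp8 (chr9:7558429-7568486) is on the same chromosome but far from these 3. Lcn2 (chr2:32384633-32387797) and Mpo (chr11:87793581-87804413) have no member near them. These positions are of GRCm38 as the deposited tables give them, and all members are protein-coding. Their Ensembl identifiers are ENSMUSG00000020125 (Elane), ENSMUSG00000009350 (Mpo), ENSMUSG00000057729 (Prtn3), ENSMUSG00000032496 (Ltf), ENSMUSG00000038357 (Camp), ENSMUSG00000026822 (Lcn2), ENSMUSG00000032484 (Ngp), ENSMUSG00000005800 (Mmp8), ENSMUSG00000056054 (S100a8) and ENSMUSG00000056071 (S100a9).

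Counts per library summed to between 37967542 and 61369441, and the lowest count of any member in any library was 42, so spread between libraries and not counting error set the precision. Mitochondrial genes took 0.481% to 1.074% of counts in set A and 2.364% to 5.264% in set B. In set B this share was 2.844%, 2.364% and 3.639% in Bap1flox preOC numbers 4, 5 and 6 and 3.383%, 3.714% and 5.264% in Bap1LysM preOC, higher in Bap1LysM for each number, and its part in the levels of the members was not tested. In CPM (counts scaled to a common library total), Bap1 was at 82.1 to 84.4 CPM in Bap1flox BMM and 74.8 to 77.1 CPM in Bap1LysM BMM, and at 70.4 to 97.2 CPM in Bap1flox preOC and 56.1 to 87.8 CPM in Bap1LysM preOC (log2 fold change -0.22, SE 0.10, edgeR adjusted p = 0.182). Counts per gene do not separate deleted from other exons. Lyz2, where Cre resides, stood at 0.146% to 0.436% of the Bap1flox mean in 6 of the 8 Bap1LysM libraries, but at 42.8% and 75.0% in the BMM and preOC libraries of Bap1LysM number 1. The study gives the Bap1LysM genotype with a single copy of Cre, whose insertion disrupts Lyz2. Number 1 and the other 6 libraries thus differ in Lyz2, and which of them carry that genotype was not tested. The macrophage markers (Adgre1, Csf1r, Cd68, Mertk, Fcgr1, Mrc1 and Cd14) were all present in each group and summed to 3450 to 10500 CPM. The osteoclast markers (Acp5, Ctsk, Calcr, Ocstamp, Dcstamp, Nfatc1, Oscar and Atp6v0d2) summed to 162 to 295 CPM in BMM and 2290 to 6820 CPM in preOC. Ly6g, the defining surface marker of mature mouse neutrophils, was at 0 to 0.42 CPM in all 17 libraries. It is 1 of 15 listed surface and cytosolic genes of mature neutrophils, of which 7 to 9 averaged over 1 CPM in each group.

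Levels of different members were compared per transcript length, in RPKM. In Bap1flox preOC the highest was S100a9 at 59.4 ± 19.5 RPKM (SD, n = 6), followed by Ngp at 38.9 ± 12.8 RPKM, S100a8 at 29.1 ± 8.82 RPKM and Mmp8 at 21.7 ± 12.2 RPKM. Ltf (7.81 ± 3.29 RPKM), Elane (5.71 ± 2.84 RPKM), Lcn2 (4.83 ± 1.76 RPKM), Mpo (3.73 ± 1.64 RPKM), Camp (3.6 ± 1.79 RPKM) and Prtn3 (2.47 ± 0.741 RPKM) were lower. In this order, neighbours differed by less than the larger of their SDs, except for S100a9 against Ngp and Mmp8 against Ltf. In Bap1LysM preOC the order was S100a9 (166 ± 87.9 RPKM, SD, n = 5), Ngp (129 ± 77.4 RPKM), S100a8 (77.4 ± 38.6 RPKM), Ltf (21.4 ± 9.05 RPKM), Lcn2 (14.0 ± 6.52 RPKM), Elane (12.8 ± 7.56 RPKM), Camp (10.5 ± 5.03 RPKM), Mpo (10.2 ± 4.74 RPKM), Mmp8 (9.88 ± 3.81 RPKM) and Prtn3 (5.12 ± 1.86 RPKM). From Ltf down to Mmp8, neighbours in this order differed by less than the larger of their SDs, so the place of Mmp8 among them is not fixed.

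Whether Bap1 deletion changes these genes in early osteoclasts was described from the 11 preOC libraries. Of the members, 9 had higher fitted levels in Bap1LysM preOC, with log2 fold changes of 1.14 to 1.82, and Mmp8 had a lower one. The rise lay mostly in library set B, where each of the 9 members was higher in all 3 Bap1LysM libraries than in any of the 3 Bap1flox libraries. In bulk RNA a smaller number of cells of a type and less RNA per cell cannot be told apart, and this holds for every value here. In edgeR 8 of the 10 members, all of them higher, had an adjusted p under 0.05, where 15.8% of all 12929 genes tested passed in either direction, 7.12% as higher and 8.68% as lower. Since the members were picked for this contrast, nothing is read from that count.

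**Figure D1:**
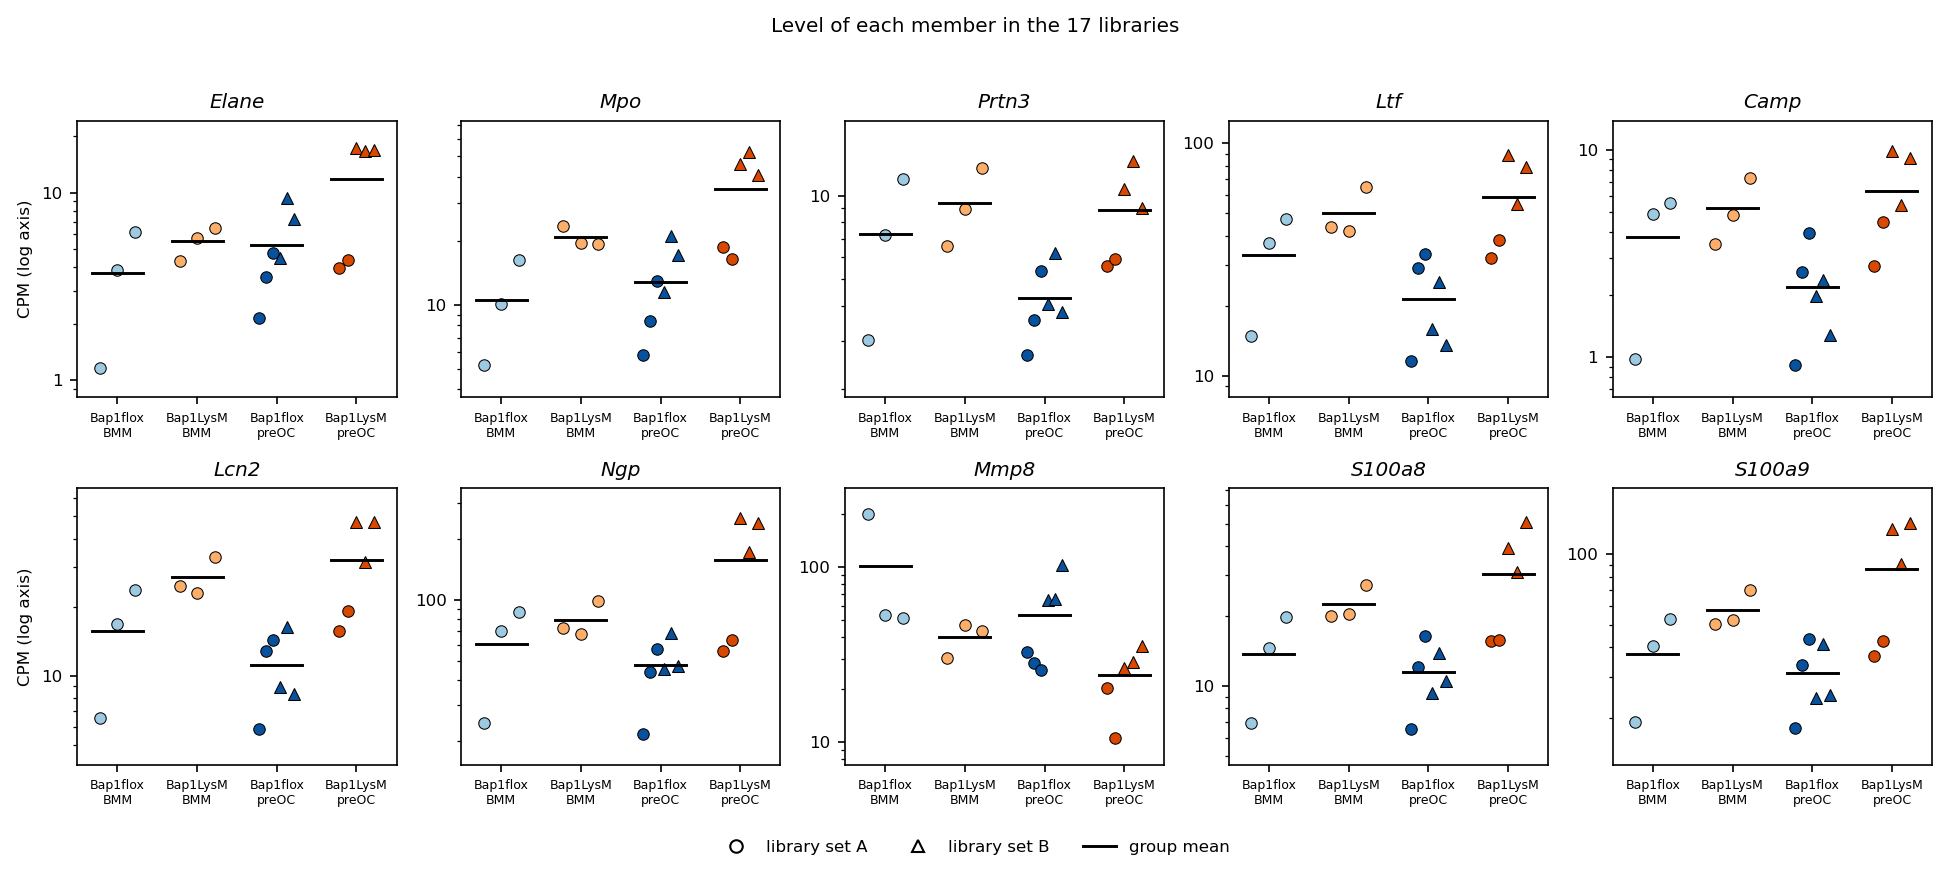
Level of each of the 10 members in CPM (log axis) in every library, by group, with circles for library set A, triangles for library set B and a line at the group mean. The 3 Bap1LysM preOC libraries of set B are the highest preOC libraries for 9 members, whereas Mmp8 is highest in Bap1flox BMM number 1 at 202 CPM.

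Among the primary granule genes, Mpo encodes myeloperoxidase, which makes hypochlorous acid. In Bap1flox preOC it ranged from 5.81 to 21.1 CPM with a median of 12.2 CPM. In Bap1LysM preOC numbers 1, 2, 4, 5 and 6 it was at 18.8, 16.4, 46.0, 52.4 and 40.8 CPM. The 3 libraries of set B lay above all others, and both libraries of set A lay within the Bap1flox range, although above the Bap1flox libraries of their own set. The log2 fold change was 1.52 (SE 0.39). Elane, neutrophil elastase, ranged from 2.15 to 9.37 CPM in Bap1flox preOC (median 4.62 CPM) and was at 3.96, 4.40, 17.2, 16.7 and 16.8 CPM in the 5 Bap1LysM preOC libraries. Its 2 Bap1LysM libraries of set A did not stand out from Bap1flox, and its log2 fold change was 1.24 (SE 0.48). Prtn3, proteinase 3, had the smallest fold change of the 9, 1.14 (SE 0.28), from 2.67 to 6.22 CPM in Bap1flox to 5.58 to 13.3 CPM in Bap1LysM preOC.

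Of the secondary granule genes, Ngp, which encodes a cathelicidin-related protein of neutrophil granules, ranged from 21.8 to 68.6 CPM with a median of 46.4 CPM in Bap1flox preOC. In Bap1LysM preOC numbers 1, 2, 4, 5 and 6 it was at 55.7, 63.6, 255, 172 and 241 CPM. Numbers 1 and 2 lay inside the Bap1flox range and numbers 4 to 6 far outside it. The mean was 3.32-fold higher in Bap1LysM preOC, and the log2 fold change of 1.82 (SE 0.42) was the largest among the members. Ltf, which encodes the iron-binding protein lactoferrin, ranged from 11.5 to 33.5 CPM with a median of 20.5 CPM in Bap1flox, and the Bap1LysM libraries had 32.2, 38.4, 89.2, 54.5 and 79.2 CPM. Only number 1 of the Bap1LysM preOC libraries overlapped with Bap1flox for Ltf (log2 fold change 1.54, SE 0.33). Lcn2, the siderophore-binding lipocalin 2, went from 5.83 to 16.4 CPM in Bap1flox to 15.7 to 47.5 CPM in Bap1LysM (1.63, SE 0.34). Camp, the cathelicidin precursor, was at 0.913 to 3.95 CPM in Bap1flox and 2.76 to 9.83 CPM in Bap1LysM (1.63, SE 0.40).

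S100a8 and S100a9 encode the calcium-binding subunits of calprotectin, which is cytosolic and also made by monocytes. S100a9 ranged from 18.1 to 43.4 CPM with a median of 29.4 CPM in Bap1flox preOC. In the 5 Bap1LysM preOC libraries it was at 36.8, 42.7, 127, 90.7 and 136 CPM. As for Ngp, the set A libraries lay inside the Bap1flox range and the set B libraries above it. The log2 fold change was 1.57 (SE 0.36) for S100a9 and 1.50 (SE 0.33) for S100a8, which went from 6.54 to 16.4 CPM to 15.6 to 50.7 CPM.

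Mmp8, neutrophil collagenase, moved in the opposite direction. In Bap1flox preOC it ranged from 26.0 to 103 CPM with a median of 48.8 CPM. In Bap1LysM preOC numbers 1, 2, 4, 5 and 6 it was at 20.3, 10.6, 26.4, 28.8 and 35.5 CPM. Within each library set every Bap1LysM library was below every Bap1flox library, and the groups overlapped only when the sets were joined, because set B was higher in both genotypes. The log2 fold change was -1.07 (SE 0.42), with -0.79 (SE 0.33) within set A and -1.32 (SE 0.20) within set B. It was -0.75 without Bap1flox preOC number 6, which held the highest value.

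The size of the difference depended on the library set for the other 9 members. Within set A, with 3 libraries against 2, their log2 fold changes were 0.35 for Elane, 0.42 for S100a9, 0.53 for S100a8, 0.61 for Ltf, 0.62 for Camp, 0.63 for Ngp, 0.67 for Prtn3, 0.76 for Lcn2 and 1.07 for Mpo. Within set B, with 3 against 3, the primary granule genes had 1.29 for Prtn3, 1.33 for Elane and 1.54 for Mpo, and the others 1.90 for S100a8, 1.96 for Lcn2, 2.01 for S100a9, 2.09 for Ltf, 2.10 for Ngp and 2.18 for Camp. In set B all 6 other members thus had larger values than all 3 primary granule genes, and in set A they did not. The standard errors in set B, 0.19 to 0.28, are of single fold changes, and the differences between genes were not tested. Without an overlap between genotypes were 3 members as higher (Mpo, Prtn3 and Lcn2) and Mmp8 as lower in set A, where 11.9% and 25.5% of all genes had such ranges, and 9 as higher and Mmp8 as lower in set B, against 19.5% and 28.8%. Over all 11 libraries, 10 of 10 members overlapped, where 2.64% of all genes were apart as higher and 7.66% as lower. The number with an adjusted p under 0.05 was 0 in set A, where 0% of all genes passed, and 10 in set B, 9 as higher and 1 as lower, where 15.8% of all genes passed as higher and 18% as lower. With the replicate block, which takes the replicate number as a factor, 10 members passed, and with the library set as a term also 10, where 32.8% and 33.6% of all genes passed. It was 5 without Bap1LysM preOC number 4 and 6 without number 5, where 8.35% and 8.32% of all genes passed. It was 9 without number 1, the one with more Lyz2, and likewise 9 without number 2, where 24% and 21.6% of all genes passed.

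**Figure D2:**
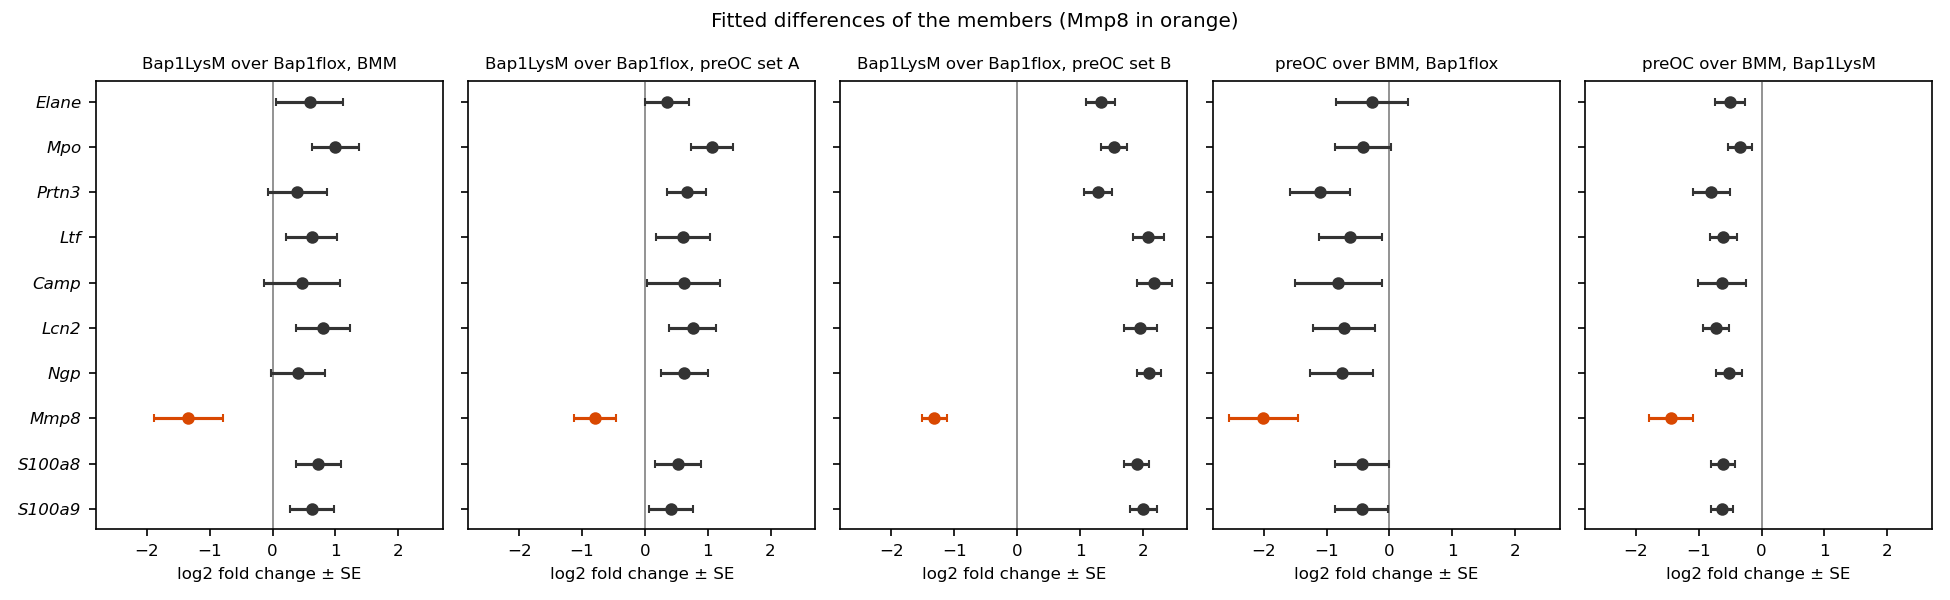
Fitted log2 fold changes with standard errors from edgeR for the 10 members in the comparison of genotypes in BMM, in preOC of library set A and of library set B, and in the comparison of preOC with BMM in each genotype. Mmp8 (orange) is below 0 in every panel, whereas the other 9 members are above 0 in the genotype panels and below 0 in the RANKL panels.

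In BMM, before RANKL, the same 9 members were higher and Mmp8 was lower in the Bap1LysM fit, and 7 of the 10 overlapped between the genotypes. In Bap1flox BMM numbers 1, 2 and 3, Ngp was at 24.6, 70.1 and 87.5 CPM, and in Bap1LysM BMM it was at 72.6, 67.4 and 98.7 CPM. The groups overlapped, and Bap1flox number 1 was the lowest of the 6 libraries for each of the 9 members. Mpo, at 5.24, 10.1 and 16.3 CPM without Cre, reached 23.4, 19.6 and 19.3 CPM in the Bap1LysM libraries, with no overlap, and had the largest log2 fold change, 1.00 (SE 0.38). S100a8 did not overlap either, with a log2 fold change of 0.73 (SE 0.36). Ltf did overlap, at 14.8, 37.1 and 47.2 CPM against 43.5, 42.0 and 64.5 CPM. The other log2 fold changes of the 9 members lay between 0.39 for Prtn3 and 0.80 for Lcn2. With ranges apart were 2 members as higher and 1 as lower, against 13.6% and 19% of all 13028 genes tested, and 0 of 10 had an adjusted p under 0.05, against 5.32% of all genes (1.31% as higher and 4.01% as lower). DESeq2 gave 1 and voomWithQualityWeights 0, where 15.9% and 13.6% of all genes passed.

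Mmp8 in BMM rested on a single library. Bap1flox BMM numbers 1, 2 and 3 held 202, 53.1 and 51.2 CPM, and the Bap1LysM BMM libraries 30.4, 46.7 and 43.2 CPM, without overlap. The log2 fold change was -1.34 (SE 0.55) with all libraries and -0.36 without Bap1flox number 1. That library was the highest of the 17 for Mmp8 and among the 3 lowest of the 17 for each of the other members. The median log2 fold change of all 10 members in BMM was 0.22 without it, and 0.43 to 0.96 without any other single library.

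RANKL treatment was described within library set A, which holds both BMM and preOC. The fitted levels of all 10 members were lower in preOC than in BMM in both genotypes, though without Bap1flox BMM number 3 Elane (0.33) and Mpo (0.07) were higher in Bap1flox preOC. In Bap1flox the log2 fold changes were -0.28 (Elane), -0.42 (Mpo) and -1.10 (Prtn3) for the primary granule genes, -0.62 (Ltf), -0.81 (Camp), -0.72 (Lcn2) and -0.76 (Ngp) for the secondary granule genes, and -0.44 for both calprotectin subunits. Mmp8 had the largest difference at -2.01 (SE 0.55), which was -0.98 without Bap1flox BMM number 1. In Bap1LysM the values were -0.50 (Elane), -0.34 (Mpo), -0.80 (Prtn3), -0.61 (Ltf), -0.63 (Camp), -0.73 (Lcn2), -0.52 (Ngp), -0.62 (S100a8), -0.63 (S100a9) and -1.45 (Mmp8, SE 0.35). With all libraries Mmp8 had the largest difference in both genotypes. In Bap1flox this rested on number 1, since without BMM number 1 Prtn3 (-1.42), Camp (-1.21), Ngp (-1.08) and Lcn2 (-1.04) exceeded Mmp8, and without both libraries of number 1 Prtn3 did (-1.22 against -1.09). DESeq2 gave 2 members past the adjusted p in Bap1flox and 5 in Bap1LysM, where 65.1% and 30.7% of all genes passed. With voomWithQualityWeights these were 5 and 1, where 75.8% and 12.8% passed. In edgeR 1 member passed in each genotype, Mmp8 as lower, where 64.6% and 19.6% of all genes passed in either direction and 32.9% and 8.2% as lower. Mmp8 lost that call in Bap1flox without preOC number 2 or without preOC number 3, and in Bap1LysM without any 1 of the libraries except preOC number 1.

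The individual libraries show what lay behind the wide errors in Bap1flox. Ltf was at 14.8, 37.1 and 47.2 CPM in BMM numbers 1, 2 and 3 and at 11.5, 29.0 and 33.5 CPM in preOC of the same numbers. Prtn3 was at 3.01, 7.22 and 11.5 CPM in BMM and 2.67, 3.57 and 5.35 CPM in preOC. Ngp was at 24.6, 70.1 and 87.5 CPM in BMM and 21.8, 44.1 and 57.0 CPM in preOC. Each number was lower in preOC than in BMM for these 3 genes, and number 1 was the lowest in both states. This did not hold for all members, as Elane (1.16 to 2.15 CPM) and Mpo (5.24 to 5.81 CPM) were higher in preOC than in BMM of number 1. With the replicate block 8 of the 10 members passed the adjusted p in Bap1flox, Elane and Mpo being the exceptions, and without both libraries of number 1 also 8, all of them lower, where 32.7% and 37.1% of all genes passed as lower. The members were chosen with these results known, so nothing is read from the counts. The interaction of genotype and RANKL was between -0.24 and 0.56 for the members, the latter for Mmp8, which went to -0.43 without Bap1flox BMM number 1 and -0.08 without Bap1LysM preOC number 1, with 0 of them and 0 of all 13637 genes past the adjusted p in edgeR. At an unadjusted p under 0.05 there were 1718 genes, and DESeq2 gave 117 genes past the adjusted p and voomWithQualityWeights 0. When the BMM libraries were harvested is not given in the sources used here.

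**Figure D3:**
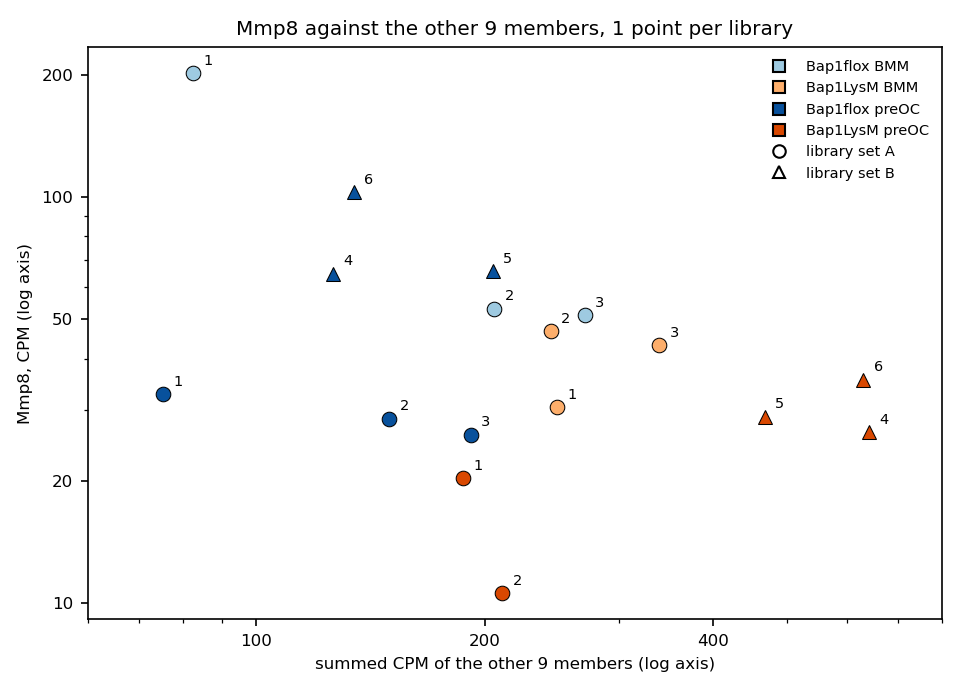
Level of Mmp8 (CPM, log axis) against the summed level of the other 9 members (CPM, log axis), with a point for each of the 17 libraries, coloured by group, shaped by library set and labelled with its number. The 3 Bap1LysM preOC libraries of set B lie farthest right at 468 to 641 CPM, and Bap1flox BMM number 1 lies at the upper left at 82.5 CPM of the other members.

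Across the 17 libraries the members varied together in a graded way. Among Ltf, Camp, Lcn2, Ngp, S100a8 and S100a9 the Pearson correlation of log2 CPM was 0.89 to 0.99 over 15 pairs, with a median of 0.96. Among the 3 primary granule genes it was 0.73 to 0.93, and between these and the former 6 it was 0.69 to 0.92 with a median of 0.86. Mmp8 correlated at -0.48 to -0.28 with each of the other 9 members, and at -0.72 to -0.58 once the mean of each group within each library set was removed. By rank, over the libraries as they stand, this was weaker, with a Spearman correlation of -0.40 to 0.01. The other pairs stayed at 0.67 or above after that removal. These correlations describe libraries that share groups, library sets and replicate numbers, and have no test.

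The sum of the secondary granule members over the sum of the primary ones was taken as a granule balance, on a log2 scale of CPM. It was 3.50 ± 1.09 (SD, n = 3) in Bap1flox BMM, 2.49 ± 0.18 (n = 3) in Bap1LysM BMM, 2.65 ± 0.226 (n = 6) in Bap1flox preOC and 2.30 ± 0.318 (n = 5) in Bap1LysM preOC. All 4 groups overlapped with at least 1 other, and the high mean in Bap1flox BMM came from number 1 at 4.73. The secondary sum of that library was 249.2 CPM with Mmp8 and 46.96 CPM without it. When Mmp8 was left out, a choice made after its values were seen, the balance was 2.40 ± 0.18, 2.16 ± 0.219, 1.91 ± 0.425 and 2.15 ± 0.351 in the same groups. With Mmp8 the balance was lower in Bap1LysM preOC by more than either SD, with 1 of the 5 same-numbered pairs (number 6, 2.62 and 2.63) as the exception, and in set A the ranges were apart (2.55 to 2.92 against 2.16 and 2.35). Without Mmp8 the mean was higher in Bap1LysM preOC, by less than either SD. Taken from RPKM with Mmp8, the means were 2.74 ± 0.229 in Bap1flox and 2.69 ± 0.292 in Bap1LysM preOC, which differ by less than either SD. By RPKM the ranges were still apart in set A (2.78 to 3.03 against 2.57 and 2.73), and in set B the order turned (2.61 ± 0.245 in Bap1flox and 2.71 ± 0.402 in Bap1LysM). Within set B and without Mmp8, the balance was 1.60 ± 0.266 in Bap1flox and 2.21 ± 0.457 in Bap1LysM preOC (n = 3 each), with Bap1LysM number 5 at 1.68 inside the Bap1flox range.

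**Figure D4:**
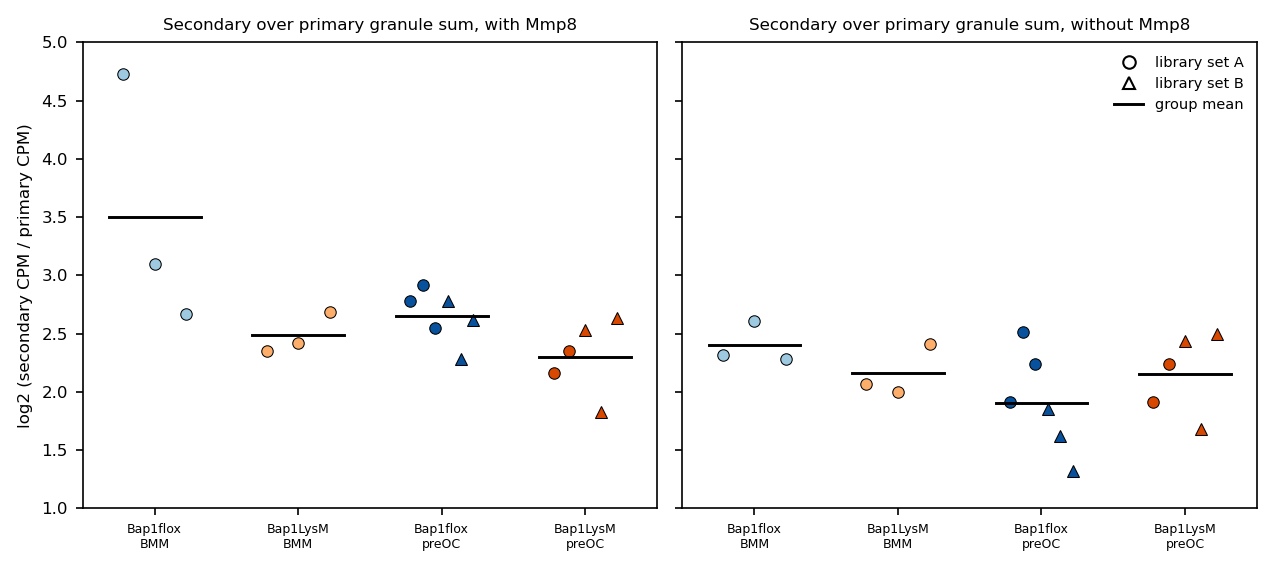
Granule balance, the log2 ratio of the summed CPM of secondary over primary granule members, for every library by group, with Mmp8 (left) and without it (right). Circles are library set A, triangles library set B and lines group means. Bap1flox BMM number 1 falls from 4.73 to 2.32 when Mmp8 is left out.

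Read as medians, the primary granule members had a log2 fold change of 1.24 and the secondary granule and calprotectin members of 1.57 in preOC, beside -0.01 over all genes tested. In BMM the medians were 0.59 and 0.62, beside -0.01. For RANKL they were -0.42 and -0.72 in Bap1flox, beside -0.05, and -0.50 and -0.63 in Bap1LysM, beside 0.01.

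Further neutrophil genes came from lists for the other primary granule, other secondary granule and tertiary granule proteins, for surface and cytosolic proteins of mature neutrophils, and for granulocyte transcription factors, 45 genes in all. In preOC 32 of them passed the filter, 10 were higher in Bap1LysM by edgeR's adjusted p, 0 were lower and 27 had a positive log2 fold change. The counts were 20 higher and 3 lower with voomWithQualityWeights, where 26.8% and 28.1% of all genes passed. They were 13 higher and 2 lower without Bap1LysM preOC number 1, where 10.7% and 13.3% passed. Without other single libraries 3 to 15 were higher, where 3.46% (without Bap1LysM preOC number 5) to 10.2% (without number 2) of all genes passed as higher. In the main fit the median of the 32 genes was 0.58, beside -0.01 for all genes, and the share of higher calls over all genes was 7.12%. Several of these genes are also expressed by macrophages (Cybb, Cyba, Itgam, Slc11a1, Ctsc, Cd63, Spi1 and the C/EBP genes among them), so the lists are not specific to neutrophils.

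Of the other secondary granule genes, 4 of 7 tested rose. Chil3 (Ym1, a chitinase-like protein also made by macrophages) ranged from 14.3 to 33.6 CPM in Bap1flox preOC with a median of 22.8 CPM and was at 33.0, 34.2, 97.0, 80.0 and 89.8 CPM in Bap1LysM preOC numbers 1, 2, 4, 5 and 6. Its log2 fold change was 1.58 (SE 0.32, edgeR adjusted p = 0.00737), and as for the members the set B libraries were the highest. Chil1, another chitinase-like protein, rose by 1.60 (SE 0.42, adjusted p = 0.0248), Cd177, a neutrophil surface and granule glycoprotein, by 1.44 (SE 0.43, adjusted p = 0.0409) and Cyba, a subunit of the NADPH oxidase, by 0.31 (SE 0.09, adjusted p = 0.0428). Of the other primary granule genes 0 of 5 passed. Ctsg, cathepsin G, had a log2 fold change of 1.35 (SE 0.45, edgeR adjusted p = 0.0618), and DESeq2, voomWithQualityWeights, the replicate block and the library set as a term each brought it past the threshold.

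Of 6 tertiary granule genes tested, Fcnb (ficolin B) rose by 1.58 (SE 0.49, edgeR adjusted p = 0.0498). Mmp9, gelatinase B, which osteoclasts also make, was at 6070 to 8510 CPM in 5 of the 6 Bap1flox preOC libraries and 3970 CPM in number 1, and its log2 fold change was 0.17 (SE 0.25, adjusted p = 0.68). Among genes of mature neutrophils 3 of 8 tested rose, all of them receptors. Fpr1 and Fpr2, receptors for formylated peptides, had log2 fold changes of 1.59 (SE 0.24, edgeR adjusted p = 0.00163) and 1.26 (SE 0.27, adjusted p = 0.00938), and Cxcr2, a chemokine receptor, 1.07 (SE 0.33, adjusted p = 0.049). Fpr1 was at 1.18 to 2.41 CPM in Bap1flox and 2.92 to 6.80 CPM in Bap1LysM preOC, with no overlap and with both library sets above Bap1flox. Of the transcription factors, Cebpd rose by 0.61 (SE 0.16, edgeR adjusted p = 0.0241) and Myb, a factor of progenitors, by 1.28 (SE 0.35, adjusted p = 0.0295). Cebpe, the factor most tied to secondary granules, had a log2 fold change of 0.05 (SE 0.22, adjusted p = 0.891), with -0.43 (SE 0.22) in set A and 0.48 (SE 0.24, adjusted p = 0.16) in set B, and Spi1, which encodes PU.1, of 0.06 (SE 0.08, adjusted p = 0.646).

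**Figure D5:**
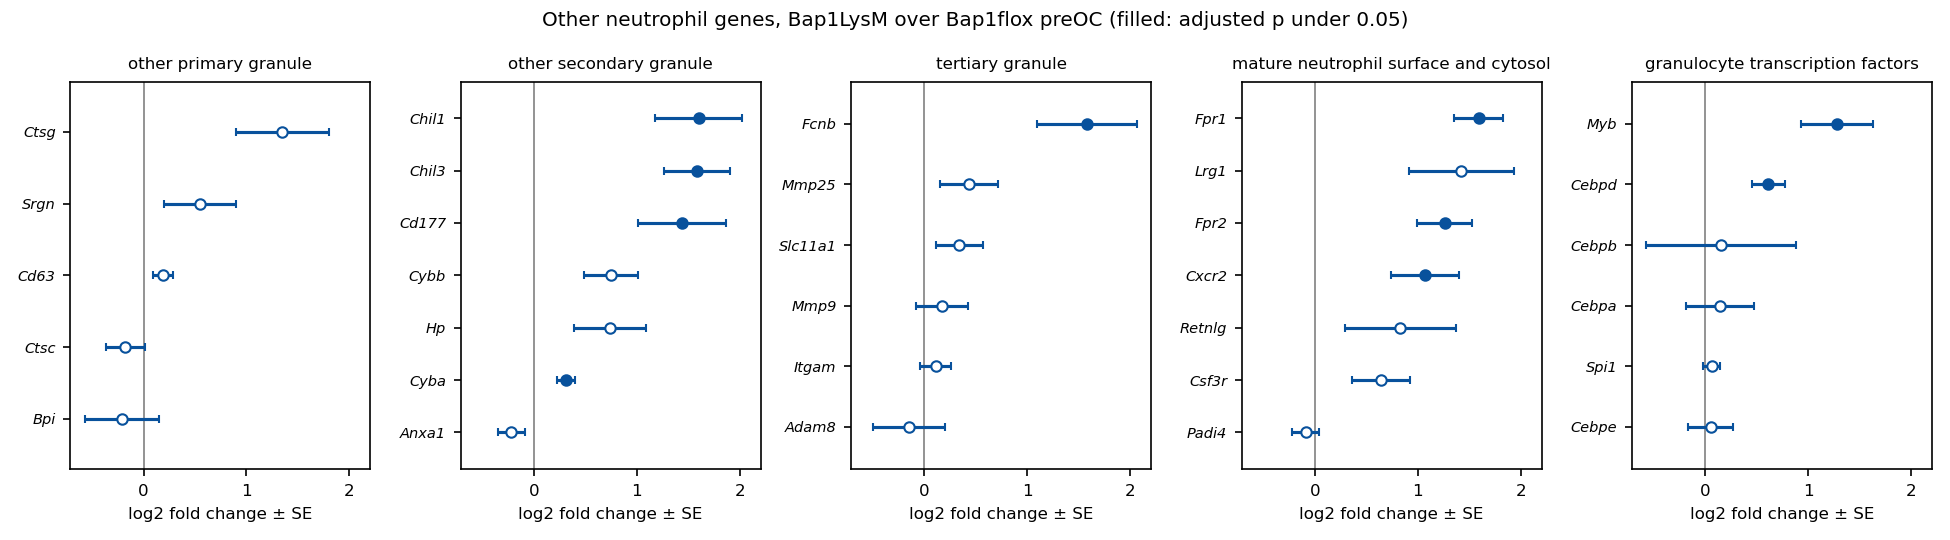
Log2 fold change with standard error (edgeR, Bap1LysM over Bap1flox preOC) of 31 of the 32 other neutrophil genes tested, by list, with filled points for an adjusted p under 0.05. All 10 filled points lie to the right of 0, and Cebpe and Spi1 lie near 0.

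Chil3, Fpr1 and Fpr2 kept an adjusted p under 0.05 whichever of the 11 preOC libraries was left out, and each of the other 7 lost it in at least 1 such fit. Without Bap1LysM preOC number 4, and likewise without number 5, these 3 were the only ones left of the 10. Within set A alone 0 of the 32 genes tested passed (4 at an unadjusted p under 0.05), within set B alone 23 of 37 were higher and 2 lower, against 15.8% and 18% of all genes, but 5 of these 23 (Ms4a3, Olfm4, Wfdc21, G0s2 and Gfi1) were below the filter over all preOC libraries and passed it in set B only through Bap1LysM, so the 23 is not a count over genes that could have gone either way. With the replicate block 15 were higher, against 16.1%. In BMM 31 were tested, 0 were higher and 1 was lower, Srgn, the proteoglycan core protein of granules (log2 fold change -0.81, SE 0.13, edgeR adjusted p = 0.0238), with a median of 0.29 over the lists. The edgeR adjusted p of Srgn was 0.075 without Bap1flox BMM number 2, 0.107 without Bap1flox number 3 and 0.0745 without Bap1LysM number 2. With the replicate block 3 were higher and 2 lower in BMM, against 5.47% and 10.7% of all genes.

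With RANKL, 7 of 31 tested genes rose and 12 fell in Bap1flox, with a median of -0.64. Over all genes 31.7% rose and 32.9% fell, so the counts of this fit are near the background. With the replicate block 6 rose and 16 fell, where 30.8% and 32.7% of all genes passed. Without both libraries of number 1, 9 rose and 16 fell, where 37.6% and 37.1% passed. Bpi is among the 7 and passed the filter only through preOC, so it could be called only as higher. Mmp9 rose by 7.08 (SE 0.85, edgeR adjusted p = 0.000339). Csf3r, the G-CSF receptor, fell by 3.40 (SE 0.18, adjusted p = 1.14e-05) and Cebpa by 2.15 (SE 0.08, adjusted p = 4.28e-06) on the log2 scale. Bpi, of the primary granule, had 0 counts in all 6 BMM libraries, which allows up to 0.0671 CPM (3 counts, counting error only), and stood at 0.463 to 2.47 CPM in all 11 preOC libraries, and so followed RANKL and not the members. In Bap1LysM 3 of 32 rose and 4 fell, where 11.4% of all genes rose and 8.2% fell, again near the background. Mmp9 was among the 3 (6.20, SE 0.78, edgeR adjusted p = 0.0105, and 0.0589 without Bap1LysM BMM number 2). So was Mmp25 (1.57, SE 0.40), which passed the filter only through preOC and so could be called only as higher. With the replicate block 2 rose and 7 fell, against 11% and 10.1% of all genes. The counts of the main fit rest on single libraries. Without BMM number 2 they were 0 and 0, where 0.373% of all genes rose and 0.117% fell. Without BMM number 3 they were 1 and 1, where 0.888% rose and 0.389% fell. Without BMM number 1 they were 2 and 2, where 5.2% rose and 3.8% fell. The share over all genes thus fell in the same fits. The medians were -0.50 without preOC number 1, -0.51 without preOC number 2 and -0.55 without both libraries of number 1, each with 1 preOC library left. Mmp9 was not typical of the tertiary granule list, of which 5 genes were tested in Bap1flox, with 2 higher, 2 lower (Slc11a1 and Itgam, with log2 fold changes of -1.81 and -0.94) and a median of -0.81.

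Outside all lists, the genes whose log2 CPM over the 17 libraries was most like the mean of the primary granule members were Pglyrp1, which encodes a peptidoglycan recognition protein of neutrophil granules (Pearson correlation 0.894), 4930438A08Rik (0.889), I830127L07Rik (0.888), Itgb2l (0.867) and Ccng1 (0.846), among 13810 genes compared. For the secondary granule members they were Itgb2l, an integrin beta 2-like gene (0.962), Pglyrp1 (0.956), I830127L07Rik (0.919), Rab44 (0.886) and 4930438A08Rik (0.884). Pglyrp1 averaged 1.83 CPM in Bap1flox BMM, 2.97 CPM in Bap1LysM BMM, 1.49 CPM in Bap1flox preOC and 3.96 CPM in Bap1LysM preOC. Most like Mmp8, a search added after its values were seen, were Dubr (0.935), Kcnk6 (0.934), Fam102b (0.919), Kiz (0.913) and Exd2 (0.907), none of which is in the former lists.

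The summed levels of markers of other cells are given beside the members. In BMM the monocyte markers Ly6c2, Ccr2 and F13a1 summed to 582 to 751 CPM in Bap1flox and 238 to 571 CPM in Bap1LysM, lower without overlap, and the 6 progenitor markers to 12.9 to 21.8 CPM and 23.4 to 32.9 CPM, higher without overlap. The same 3 monocyte markers, present in each group, were far lower in preOC, at 16.1 to 48.7 CPM in Bap1flox and 18.1 to 157 CPM in Bap1LysM. In set A alone these were 16.1 to 45.2 CPM and 18.1 to 45 CPM, which overlapped. The 7 B cell and plasma cell markers summed to 2.11 to 4.33 CPM and 5.91 to 10.5 CPM, without overlap. The 6 progenitor markers (Kit, Cd34, Flt3, Hoxa9, Meis1 and Sox4) summed to 10.2 to 19.6 CPM and 11.7 to 23.8 CPM, and the 6 eosinophil markers to 0.494 to 1.15 CPM and 0.975 to 1.93 CPM. The 7 mast cell and basophil markers summed to at most 3.51 CPM and the 7 erythroid markers to at most 0.443 CPM. The 5 stromal markers ranged widely in both genotypes, from 169 to 2090 CPM in Bap1flox and 90.4 to 1310 CPM in Bap1LysM preOC. Within set B, where most of the rise of the members lay, 4 of these lists were higher in Bap1LysM without overlap. The progenitor markers summed to 10.3 CPM in the lowest and the highest Bap1flox library and to 20.7 to 22.9 CPM in Bap1LysM, and the 3 monocyte markers to 36.9 to 48.7 CPM and 91.6 to 157 CPM. The B cell and plasma cell markers summed to 2.25 to 2.89 CPM and 7.47 to 9.62 CPM, and the eosinophil markers to 0.494 to 1.15 CPM and 1.64 to 1.93 CPM. The macrophage markers did not overlap either, at 3550 to 3940 CPM and 4230 to 4800 CPM. The part of any of these cells, of depth or of library set in the levels of the members was not tested.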

How the data were processed

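Reads of poly-A RNA were aligned by the authors to GRCm38 with STAR 2.5.1a, and uniquely aligned, unambiguous reads per Ensembl gene were counted with featureCounts 1.4.6-p5; use of strand is not given in the sources used here. The deposited counts are whole numbers without normalization. The CPM values the authors deposited equal counts over the library total, and the deposited RPKM values equal CPM over gene length. Here 355 ribosomal RNA genes were left out, which moves the CPM printed here slightly, and symbols came from GENCODE M21. Count totals were 37967542 to 61369441 per library. Groups came from the labels. The study describes the preOC samples as biologically independent; for the BMM libraries this is not given in the sources used here, and p-values then measure only the spread between libraries.

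Tested genes had a CPM over 1 in 4 or more of the 11 preOC libraries, or in 2 or more libraries elsewhere. Tests were run with edgeR 4.0.16 (quasi-likelihood, TMM, R 4.3.3), Benjamini-Hochberg threshold 0.05, in 5 comparisons. The fit held the groups compared only. The interaction and RANKL fits used numbers 1 to 3. Log2 CPM used a prior count of 2. Alternatives were limma 3.58.1 voomWithQualityWeights (the method of the study), DESeq2 1.42.0, RLE and upper-quartile factors, a filter at 10 counts in sum, the replicate block, the library set and leaving out each library.

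Same-numbered libraries were checked for pairing by correlating deviations from group means. These were 0.37 to 0.72 between genotypes in preOC, 0.36 to 0.54 in BMM and 0.24 to 0.37 between BMM and Bap1flox preOC. Unmatched numbers of the same set reached 0.67 in preOC (Bap1flox number 6 with Bap1LysM number 5). The main fits do not pair the numbers, and only the replicate block does. With the library set mean removed, numbers 4, 5 and 6 had 0.01, -0.14 and 0.04, so in set B only the set is shared. Counts were also simulated with 200 changed genes. Among 12761 preOC genes edgeR recovered 74.7% of changes of 1 and 96.8% of changes of 2 on the log2 scale. Of the preOC calls 4.6% were false with edgeR and 18.1% with DESeq2. Changes of 1 were recovered by edgeR at 25% for RANKL in Bap1LysM and 23.7% for the interaction. The simulated libraries were independent, without a library set effect or pairing, so these rates may not hold for the real libraries.

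The members and lists were chosen with earlier results of these data known. The genes named are the members, genes of the lists, Bap1, Lyz2, and the 5 genes outside the lists most correlated with the primary and with the secondary members; those most correlated with Mmp8 were added after its values were seen. Promoters are from RefSeq, and all 10 members matched. Tables were made with python 3.11.15. 1 gene of the lists is counted in their totals but not reported here by itself.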

Additional observations from a re-analysis of the deposited data

How the results depend on the processing

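The direction of all member medians in preOC and BMM was the same under all alternatives run. In preOC 2043 genes passed, against 7099 with voomWithQualityWeights, 4236 with the replicate block, 4349 with a library set term, 4304 in set B and 0 in set A (2336 at an unadjusted p under 0.05), and 1071 to 3085 when a library was left out (1333 without Bap1flox number 5, and 3085, 1074 and 1071 without Bap1LysM numbers 1, 4 and 5). Upper-quartile factors gave 699 higher genes of 2102, against 921 of 2043. The median of the secondary granule and calprotectin members was 0.61 in set A alone, and 1.39 to 1.76 when a library was left out, with 1.07 to 1.49 for the primary members. In BMM 693 genes passed, against 2065 with DESeq2, 1772 with voomWithQualityWeights and 2107 with the replicate block, and 4 to 756 without single libraries (298, 7 and 4 without Bap1flox numbers 1, 2 and 3, and 369 and 84 without Bap1LysM numbers 1 and 2). There the member medians ranged from 0.16 to 1.16 (primary) and 0.27 to 0.96 (other).

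For RANKL in Bap1flox 8662 genes passed and 7578 to 9913 without libraries, and the medians ranged from -0.76 to 0.07 and -0.98 to -0.25, the first being above 0 without Bap1flox BMM number 3. In Bap1LysM 2550 passed, against 3996 with DESeq2 and 1667 with voomWithQualityWeights, and 63 to 4112 without libraries (1163, 63 and 164 without BMM numbers 1, 2 and 3, 553 without preOC number 2, and 4112 without both libraries of number 1, chosen after seeing the data). The medians ranged from -0.62 to -0.39 and -0.76 to -0.47. For the interaction 0 passed, against 117 with DESeq2 and 0 to 119 without libraries (119 without Bap1LysM preOC number 2), with medians of -0.39 to 0.41 and -0.35 to 0.33.

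From RPKM the granule balance was 3.58 in Bap1flox BMM, 2.77 in Bap1LysM BMM, 2.74 in Bap1flox preOC and 2.69 in Bap1LysM preOC. From CPM without Mmp8 it was 2.40 in Bap1flox BMM, 2.16 in Bap1LysM BMM, 1.91 in Bap1flox preOC and 2.15 in Bap1LysM preOC, and from RPKM without Mmp8 it was 2.75, 2.56, 2.25 and 2.59. Cebpe was at -0.01 with upper-quartile factors at -0.43 in set A and at 0.48 in set B, and Mmp9 at -0.00 and 0.34 in the leave-one-out fits with its largest and smallest p. The causes were not tested. The replicate block changed no other member call than those given.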

Other observations

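Of the 45 further neutrophil genes, 13 were below the filter in preOC, and their levels over both library sets are given here without a test. For 5 of these 13 every Bap1LysM preOC library was above every Bap1flox preOC library, for 0 every one was below, and 8 overlapped. The 2.64% of genes apart as higher covers only genes that passed the filter, so it is no background for these 13. The share over genes below the filter was not computed, and nothing is read from these counts. The 5, singled out after their values were seen, were Prss57, Ms4a3, Orm1, Il1r2 and G0s2. Ms4a3, a marker of granulocyte and monocyte progenitors, was at 0.174 to 0.596 CPM in Bap1flox and 0.656 to 2.27 CPM in Bap1LysM preOC. Prss57, a serine protease of the primary granule, was at 0.087 to 0.277 CPM and 0.309 to 1.15 CPM. Il1r2, a decoy receptor for interleukin 1, was at 0.116 to 0.213 CPM and 0.264 to 0.67 CPM. Olfm4, of the secondary granule, overlapped, at 0.0852 to 0.86 CPM and 0.734 to 2.38 CPM, as did Gfi1, a repressor needed for granulocyte differentiation, at 0.109 to 0.582 CPM and 0.316 to 1.72 CPM. In library set B alone 5 of the 13 passed the filter, through their level in Bap1LysM, so that their fits there are no test and are left out. In set B G0s2 was at 0.0882 to 0.213 CPM in Bap1flox and 0.967 to 1.42 CPM in Bap1LysM, and Gfi1 at 0.197 to 0.309 CPM and 1.18 to 1.72 CPM. Wfdc21 was at 0.49 to 0.706 CPM and 1.4 to 2.98 CPM. Of the list for mature neutrophils, Ly6g, Cxcr1, Asprv1, Stfa2 and Stfa2l1 stayed under 0.6 CPM in every preOC library. Il1r2 and G0s2 are of the same list and were among the 5 without overlap.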
